A study of Homo sapiens with 12 samples.

Results

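Talazoparib was compared with vehicle in EGI-1, an established cholangiocarcinoma (bile duct cancer) cell line. The comparison rests on 4 of the 12 libraries of the series, chosen by their labels as 2 EGI-1 libraries treated with talazoparib and 2 treated with vehicle. All 8 EGI-1 libraries entered one fit, since 2 libraries per arm carry little information on their spread. The vehicle arm received DMSO, the solvent of the drugs, the talazoparib arm received 200 nM talazoparib, the decitabine arm received 0.5 µM decitabine, and the combination arm received both drugs at these doses, each for 72 h (day 3) with 2 libraries. The cells of every arm carried the wild-type genotype of the label, and no other agent was named. A single line in culture was used, and nothing in the labels or methods says that the 2 libraries of an arm came from separate cultures, so that p-values measure the spread between these libraries, which may be technical. The number 50 stands in the names of the talazoparib libraries, where the sample labels and the methods give 200 nM.

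Talazoparib binds the catalytic site of PARP1 and PARP2. These enzymes are recruited to DNA strand breaks, where they attach chains of ADP-ribose to themselves, to histones and to repair proteins, and so bring in XRCC1 and the rest of the single-strand break repair machinery. PARP inhibitors block this synthesis and also hold PARP1 on the DNA, which is called trapping, and talazoparib is among the strongest trapping agents. Trapped PARP1 is met by replication forks in S phase, and the resulting lesions are repaired largely by homologous recombination. Cells that survive with unrepaired damage can arrest, with CDKN1A (p21) as the classical arrest gene, and can become senescent, a state known for the secretion of cytokines, growth factors, proteases and their inhibitors and for loss of lamin B1.

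Total counts per library lay between 23139065 and 33181930, the lowest and the highest both in the talazoparib arm, and TMM factors (scaling factors of the counts) lay between 0.99 and 1.01. The summed level of 18 biliary and epithelial marker genes lay between 9456 and 10420 CPM over the 8 libraries, 1 of the 18 being at 0 in all. All 9 general epithelial genes of this list had enough counts to be tested, but only 6 of the 9 biliary genes. In the vehicle and talazoparib libraries 3 of the 18 had at most 3 counts. The sum pools both kinds, so it marks an epithelial line and does not show its biliary origin. CPM are counts scaled to a total of 1000000, with TMM factors for single genes and histone sums. Sums of marker genes were scaled by library totals alone. Combination replicate 2 stood apart. It held transcripts of leukocytes, with 34.3 CPM summed over 12 leukocyte marker genes against 5.35 to 7.94 CPM in the other 7 EGI-1 libraries, and 76 genes had at least 10 counts there and at most 1 in each other EGI-1 library, against 0 or 1 such genes in each of the others. That library is in neither arm of the comparison with vehicle but shares its estimate of spread, so counts are also given without it. Between the 2 libraries of an arm, the chi-square per gene was highest in decitabine, at 9.24. It was 2.56 in vehicle, 4.68 in talazoparib and 4.22 in the combination. The decitabine libraries enter the same estimate of spread. For 1 gene alone, permuting 2 against 2 libraries gives an exact two-sided p of at least 0.333, so that all p-values come from the model fitted across all genes.

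With 2 libraries per arm, a limited set of genes was called in talazoparib alone against vehicle, mostly with modest changes and more often upwards. Genes of the secretory programme of senescent cells, targets of the YAP coactivator and enzymes of cholesterol synthesis were among those that rose. The histone genes that are active in S phase, several replication genes and targets of the antioxidant factor NRF2 were among those that fell. Genes that encode the drug's own targets and the homologous recombination machinery were not among the genes called. Of 22406 genes tested, 923 passed an adjusted p of 0.05 (the quasi-likelihood test of edgeR, adjusted after Benjamini and Hochberg), or 4.12%. They comprised 635 genes that were higher in talazoparib (2.83%) and 288 that were lower (1.29%), and 3572 genes had an unadjusted p under 0.05. Fitted with the 4 libraries of these arms alone, the same comparison gave 1851 calls. A difference of 1 or more on the log2 scale, that is 2-fold, was seen in 71 of the 635 higher and 25 of the 288 lower genes, while 345 and 170 differed by less than 0.5. The median log2 fold change was 0.47 for the higher and -0.44 for the lower genes, beside -0.003 over all genes tested.

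**Figure D1:**
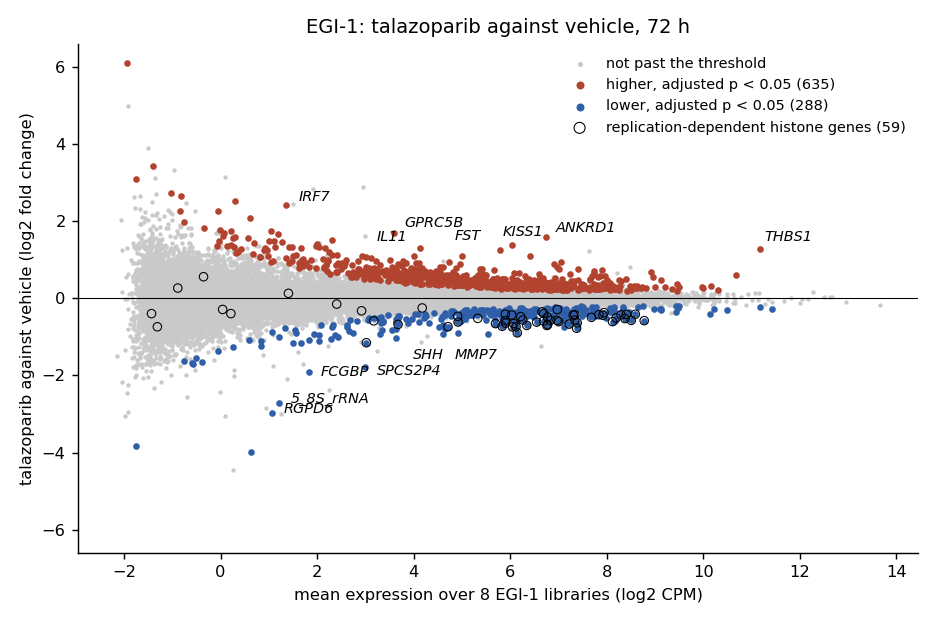
Each point is 1 of 22406 tested genes, with the mean expression over the 8 EGI-1 libraries (log2 CPM) on the x axis and the log2 fold change of talazoparib against vehicle on the y axis. The 635 higher and 288 lower genes at an adjusted p under 0.05 are coloured, and the open circles mark 59 replication-dependent histone genes, of which 56 lie below 0.

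Both talazoparib libraries lay beyond both vehicle libraries for all 923 genes, as the call itself nearly requires, while 24.9% and 24.4% of all tested genes had both talazoparib libraries above or below both vehicle libraries. The number of calls depended on single libraries. It was 416 without talazoparib replicate 1, 500 without talazoparib replicate 2, 247 without vehicle replicate 1 and 276 without vehicle replicate 2, and 818 (544 higher, 274 lower) without combination replicate 2. Of the 87 named genes that were called, 32 were called in every alternative that gave an adjusted p, 17 higher and 15 lower. None of the 87 changed direction in any alternative, which the lack of overlap between the arms made nearly certain beforehand. DESeq2 gave no adjusted p for 8 of the 87, among them SMOC1, IGDCC4, TMEM45A, RGPD6 and MICB. Combination replicate 1 and the decitabine libraries were not left out singly of the comparison with vehicle, so no alternative covers them singly.

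The largest rises were seen in genes of diverse function, from transcription regulators to secreted proteins. ANKRD1, which encodes an ankyrin repeat protein and is a classical target of YAP, had the lowest p-value of all genes. ANKRD1 (ENSG00000148677.7, chr10:90912096-90921087 of GRCh38) was measured at 43.0 and 40.7 CPM in the vehicle libraries and at 118 and 133 CPM in the talazoparib libraries, a 3.0-fold rise (log2 fold change 1.58, standard error 0.08, adjusted p = 8.1e-09 from edgeR). KISS1 (ENSG00000170498.9, chr1:204190341-204196491), the precursor of the kisspeptin peptides, stood at 30.8 and 30.1 CPM in vehicle and at 82.3 and 78.3 CPM in talazoparib, a 2.63-fold rise (log2 fold change 1.4, standard error 0.09, adjusted p = 6.9e-08 from edgeR). FST, which encodes follistatin, the secreted antagonist of activin, stood at 31.6 and 32.2 CPM in vehicle and at 76.8 and 76.3 CPM in talazoparib, a 2.40-fold rise (log2 fold change 1.26, adjusted p = 1.5e-08 from edgeR). In these 3 genes the replicates of an arm lay close together and far from those of the other arm. INHBA, the activin A subunit that follistatin binds, rose by 0.62 on the log2 scale (adjusted p = 0.0245 from edgeR).

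The promoters of ANKRD1 and KISS1 are shown as examples from the genes with the largest rises. They are the 250 bases before the RefSeq start on GRCh38.p14, 5′ to 3′ on the strand of the gene. The ANKRD1 stretch (chr10:90921088-90921337, minus strand) holds 1 match to TGANTCA, a loose form of the AP-1 motif with any base at N. This match starts 195 bases before the start and reads TGATTCA, with T in the centre where the AP-1 consensus has C or G. The stretch also holds 2 matches to GGAATG, the core bound by TEAD factors, starting 220 and 128 bases before the start. The KISS1 stretch (chr1:204196492-204196741, minus strand) holds TATAAA and its reverse complement overlapping, from 31 bases before the start. Capitals mark these matches.
ANKRD1: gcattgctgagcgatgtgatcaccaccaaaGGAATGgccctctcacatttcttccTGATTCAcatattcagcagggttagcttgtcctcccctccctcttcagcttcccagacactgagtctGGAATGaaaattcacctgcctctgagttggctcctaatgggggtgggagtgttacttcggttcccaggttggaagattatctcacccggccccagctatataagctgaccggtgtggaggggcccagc
KISS1: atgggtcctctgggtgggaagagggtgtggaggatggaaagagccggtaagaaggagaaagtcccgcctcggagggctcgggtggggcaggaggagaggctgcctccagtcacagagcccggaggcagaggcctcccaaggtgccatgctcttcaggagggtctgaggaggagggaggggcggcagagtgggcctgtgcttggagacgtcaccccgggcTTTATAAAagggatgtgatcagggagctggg
Searched on both strands, TGANTCA was found in 6.56% and GGAATG in 14% of the 457 promoters found for genes called higher, beside 4.51% and 9.88% of 12455 promoters of tested genes and 6.6% and 11.9% of all 27305 promoters of the same length. TATAAA was found in 9.19% of the promoters of the higher genes, 6.33% of those of tested genes and 11.1% of all promoters. These shares are descriptions, with no test. GGAATG was chosen after the values of ANKRD1 had been seen.

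Of the called genes whose mean level reached 1 log2 CPM, IRF7 (chr11:612553-615983) had the largest rise. It encodes the transcription factor that drives type I interferon genes. IRF7 stood at 1.42 and 0.796 CPM in vehicle and at 6.67 and 5.41 CPM in talazoparib, a 5.37-fold rise (log2 fold change 2.43, standard error 0.29, adjusted p = 9.2e-05 from edgeR). GPRC5B, an orphan G protein-coupled receptor that overlaps IQCK on the opposite strand, was measured at 4.64 and 4.51 CPM in vehicle and at 15.2 and 14.5 CPM in talazoparib, which is 3.24-fold. L1CAM, a neural cell adhesion molecule, rose from 1.63 and 1.36 CPM to 4.35 and 3.75 CPM, and BRSK1, a kinase related to AMPK, from 1.70 and 2.12 CPM to 4.95 and 5.90 CPM. These 4 genes did not overlap between arms, which the ranking required, and all 4 were called in every alternative run.

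The other genes of the 12 largest rises were SMOC1, a secreted calcium-binding protein of the matrix (log2 fold change 1.74), IGDCC4, a membrane protein of the immunoglobulin superfamily (1.67), the pseudogene ZFP64P1 (1.5), TMEM45A, a transmembrane protein (1.49), CYGB, which encodes the oxygen-binding cytoglobin (1.47), and ATP6V0A4, a subunit of the proton pump V-ATPase (1.35). Their levels were low, between 0.530 and 1.80 CPM in vehicle. SMOC1 lost the call without vehicle replicate 2 and without talazoparib replicate 2, and TMEM45A without vehicle replicate 1 and without vehicle replicate 2. CYGB lost it without talazoparib replicate 1 and without either vehicle replicate. The strand setting of the counting is not stated, so that reads of genes with an annotated partner on the opposite strand, such as SMOC1 and L1CAM, cannot be told apart from those of the partner.

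**Figure D2:**
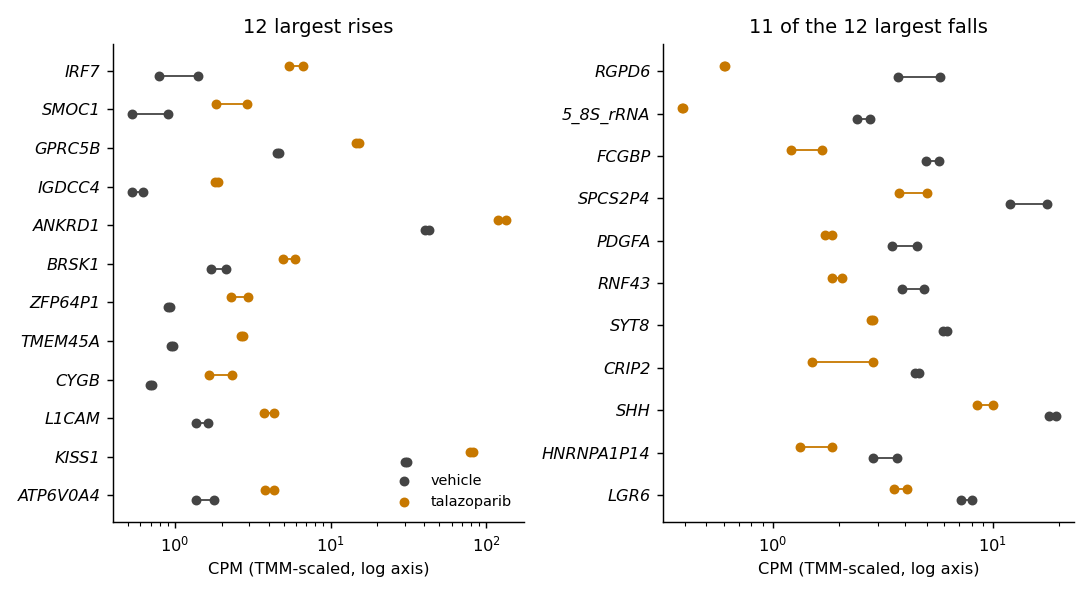
Level of the genes with the largest rises and falls in each vehicle and talazoparib library (CPM on a log axis), with a line joining the 2 replicates of an arm. The arms do not overlap in any gene shown, since only such genes were ranked. IRF7 and RGPD6, with the largest log2 fold changes, stand at the top of each panel.

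The largest falls lay in genes with low levels, below 20 CPM in vehicle. FCGBP, a mucus protein, was measured at 4.95 and 5.72 CPM in vehicle and at 1.68 and 1.21 CPM in talazoparib, a fall by 1.91 on the log2 scale (standard error 0.32, adjusted p = 0.00274 from edgeR). SHH, the ligand Sonic hedgehog, stood at 19.3 and 18 CPM in vehicle and at 10.0 and 8.47 CPM in talazoparib, 2.02-fold lower (adjusted p = 2.4e-04 from edgeR), and was called in every alternative run. Both arms of SHH were apart by more than their replicates were. LGR6, a receptor for R-spondins, was at 7.14 and 8.07 CPM in vehicle and at 4.09 and 3.54 CPM in talazoparib, which is 2.00-fold lower, and RNF43, the ubiquitin ligase that R-spondins act on to raise Wnt signalling, was 2.22-fold lower (4.85 and 3.86 CPM against 1.85 and 2.06 CPM). PDGFA, a growth factor, fell by 1.16, SYT8, a synaptotagmin, by 1.1 and CRIP2, a LIM domain protein, by 1.09 on the log2 scale. LGR6 lost the call without vehicle replicate 1, without vehicle replicate 2 and without talazoparib replicate 2, and CRIP2 was called in 10 of 15 alternatives. SYT8 lost it without each of the 4 libraries compared, and RNF43 without vehicle replicate 1. FCGBP and PDGFA lost it without vehicle replicate 2 and without talazoparib replicate 2.

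The falls of largest size included transcripts whose counts are uncertain. RGPD6, one of a family of near-identical copies derived from RANBP2, was at 5.75 and 3.71 CPM in vehicle and at 0.603 and 0.605 CPM in talazoparib (7.80-fold lower, adjusted p = 1.6e-04 from edgeR). Reads of such copies can be split between them in a way that the sources do not state. The pseudogene SPCS2P4 was 3.42-fold lower (17.6 and 12 CPM against 5.04 and 3.75 CPM), and the pseudogene HNRNPA1P14 2.01-fold. A 5.8S ribosomal RNA gene, a class of RNA that the library kit removes, was at 2.77 and 2.42 CPM in vehicle and at 0.387 and 0.393 CPM in talazoparib, and its level can move with how completely ribosomal RNA was removed, which was not tested. Below a mean of 1 log2 CPM, 34 higher and 12 lower genes were called. Among them, TNFRSF14 (ENSG00000157873.18), which encodes the receptor HVEM, was chosen after its values were seen: it had 62 and 79 counts in vehicle and 2 and 7 in talazoparib, a fall by 3.98 on the log2 scale (adjusted p = 2.0e-04 from edgeR), with 96 and 48 counts in decitabine and 7 and 23 in the combination. EDN2, which encodes endothelin-2 and was chosen in the same way, had 0 counts in both vehicle libraries and 11 and 6 in talazoparib, at least 3.0-fold higher against a floor of 3 counts per vehicle library.

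**Figure D3:**
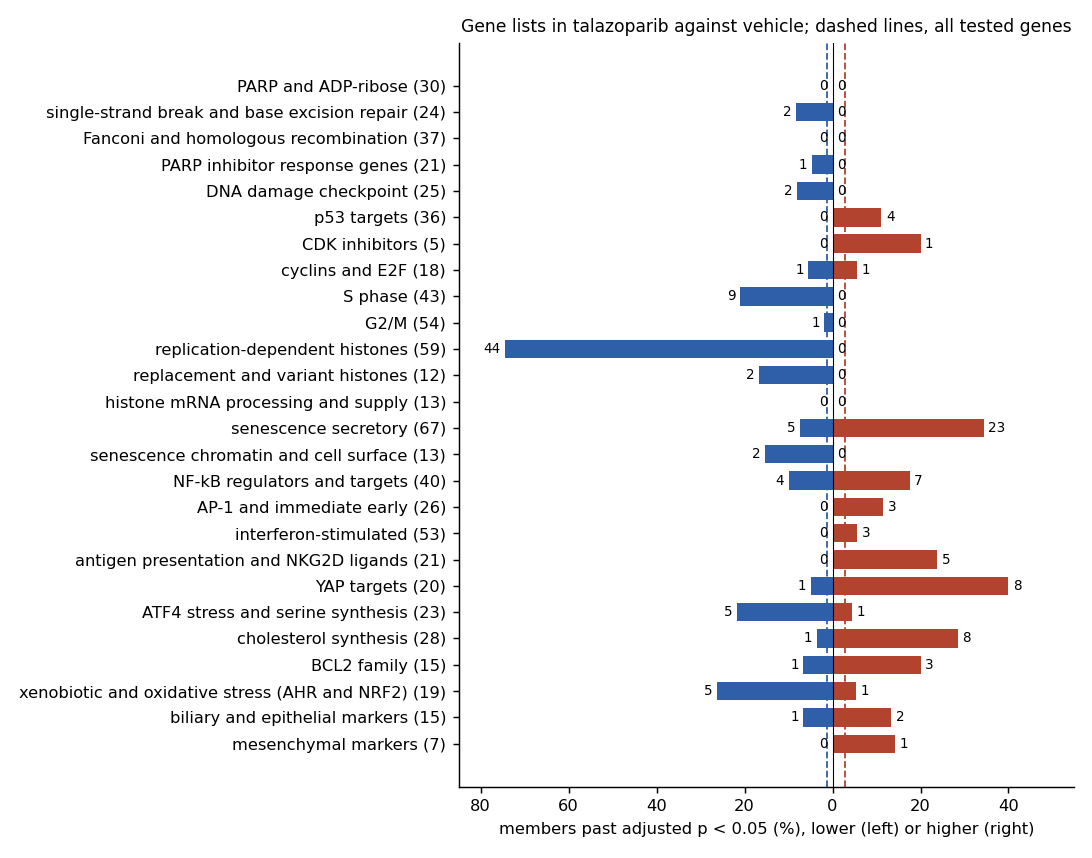
Share of the tested members of 26 gene lists (tested members in parentheses) that passed an adjusted p of 0.05 in talazoparib against vehicle, lower to the left in blue and higher to the right in red, with the number of genes at each bar. Dashed lines mark the shares over all tested genes, 1.29% lower and 2.83% higher. The longest bars are those of the replication-dependent histones (44 of 59 lower), the YAP targets (8 of 20 higher) and the senescence secretory genes (23 of 67 higher).

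The transcripts of the drug targets themselves were measured first among the gene lists. PARP1, the main target, was at 280 and 280 CPM in vehicle and at 277 and 276 CPM in talazoparib, a log2 fold change of -0.02 with a standard error of 0.06. PARP2 was at 34.8 and 34.6 CPM in vehicle and at 30 and 32.8 CPM in talazoparib (log2 fold change -0.14, standard error 0.09, adjusted p = 0.489 from edgeR). PARG, the enzyme that removes ADP-ribose chains, was at 60 and 61.9 CPM in vehicle and at 61 and 58.5 CPM in talazoparib. None of 30 tested genes of ADP-ribose writing, reading and removal passed the adjusted threshold in edgeR, DESeq2 or limma voom, while 2 were higher and 2 lower at an unadjusted p under 0.05, and the median log2 fold change was -0.03. The fitted changes of this list ran from -0.40 to 0.29. RNA levels say nothing of the activity of the enzymes or of trapping, which were not measured in these data.

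Of 24 genes of single-strand break and base excision repair 2 fell and 0 rose (8.33% lower, beside 1.29% of all genes), and 4 were lower and 0 higher at an unadjusted p under 0.05. PCNA, the replication clamp, fell by 0.36 on the log2 scale (256 and 249 CPM against 198 and 196 CPM), and UNG, the uracil glycosylase, by 0.33. The call of UNG was kept in 11 of 15 alternatives and lost without each of the 4 libraries compared. Both genes also belong to the S phase list. None of 37 genes of the Fanconi anemia pathway and homologous recombination passed in edgeR, DESeq2 or voom, and 0 were higher and 2 lower at an unadjusted p under 0.05 (median -0.05). BRCA1 was at 145 and 141 CPM in vehicle and at 127 and 136 CPM in talazoparib, and BRCA2, whose replicates overlapped between arms, at 82.5 and 71.9 CPM and at 67.2 and 81.4 CPM. Of 21 tested genes known to alter the response to PARP inhibitors, EZH2, the H3K27 methyltransferase, fell by 0.34 (adjusted p = 0.00989 from edgeR). It was the only member called (4.76%, beside 4.12% of all genes). SLFN11, which encodes a protein that blocks stressed replication forks and whose loss is linked to PARP inhibitor resistance, had 0 counts in 7 of the 8 EGI-1 libraries, a level that 3 counts would bound, and 18 in combination replicate 2, the library with leukocyte transcripts. ABCB1, the efflux pump that can export talazoparib, had 0 or 1 counts in the 4 libraries compared here.

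The damage checkpoint and p53 lists held few calls, 8.0% and 11.1% of their tested members, beside 4.12% of all genes. Of 25 checkpoint genes, WEE1, the kinase that holds CDK1 inactive, fell by 0.46 on the log2 scale, from 165 and 179 CPM to 128 and 123 CPM (adjusted p = 4.1e-04 from edgeR), and was called in every alternative run. RAD17, the loader of the checkpoint clamp, was 1.79-fold lower at 8.14 and 8.94 CPM in vehicle against 6.03 and 3.69 CPM in talazoparib, with the talazoparib replicates further apart than the vehicle replicates. RAD17 lost the call without talazoparib replicate 2 and without either vehicle replicate. Of 36 p53 targets 4 rose and 0 fell, beside 2.83% and 1.29% of all genes. CDKN1A rose 1.31-fold, from 69.7 and 69.0 CPM to 92.0 and 89.5 CPM (log2 fold change 0.39, standard error 0.08, adjusted p = 0.00518 from edgeR). The kinase PLK3 rose by 0.46, SUSD6 by 0.38 and the nuclease AEN by 0.30. MDM2, the p53 ubiquitin ligase and feedback target, was at 127 and 122 CPM in vehicle and at 126 and 137 CPM in talazoparib, overlapping between arms (log2 fold change 0.08, adjusted p = 0.633 from edgeR). Of the p53 list, 3 genes were called higher without talazoparib replicate 2 and 0 without each other library of the arms compared. CDKN1A lost its call without vehicle replicate 1, without vehicle replicate 2 and without talazoparib replicate 1.

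Some genes of DNA replication fell by modest amounts. Of 43 S phase genes 9 fell and 0 rose (20.9% against 4.12% of all genes called), with a median log2 fold change of -0.14. MCM6 and MCM5, subunits of the replicative helicase, were at 193 and 189 CPM and at 282 and 265 CPM in vehicle, and at 133 and 139 CPM and at 200 and 196 CPM in talazoparib, 1.4-fold and 1.38-fold lower. WDR76 fell by 0.40, CDCA7, a chromatin factor, by 0.39, CDC45, a helicase cofactor, by 0.31, POLA1, the catalytic subunit of polymerase alpha, by 0.29 and MCM2 by 0.24. All of these lay below vehicle in both talazoparib libraries. Of 54 G2/M genes CTCF, a chromatin insulator protein, was called, and it fell by 0.29 (1.85%, beside 1.29% of all genes called lower). Its call was kept in 9 of 15 alternatives. It was lost without each of the 4 libraries compared, and with a replicate block by title number or by library name. Among 18 cyclins, E2F factors and pocket proteins, CCND3, which encodes cyclin D3, rose by 0.45 (58.5 and 62.4 CPM against 85.2 and 80 CPM), and E2F2, an activating E2F, fell by 0.46. These genes were 11.1% of that list. The call was kept in 14 of 15 alternatives for CCND3 and in 11 for E2F2. That of E2F2 was lost without each of the 4 libraries compared. Between 3 and 5 of the S phase genes were called when single libraries of either arm were left out, fewest without talazoparib replicate 1 or either vehicle replicate. In bulk RNA, fewer cells in S phase and less of these transcripts per cell cannot be told apart.

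The replication-dependent histone genes gave the most uniform response of any list. These are the clustered, intronless genes that supply histones during DNA synthesis, and their mRNAs end in a stem-loop in place of a poly(A) tail, so that they are retained by the ribosomal RNA depletion that the methods name. Of 59 tested genes 44 fell and 0 rose (74.6%, beside 1.29% of all genes called lower), 56 of 59 had fitted values below 0, and in 53 both talazoparib libraries lay below both vehicle libraries, beside 24.4% of all tested genes. Summed over the 59 genes, the level was 9455 and 8504 CPM in vehicle and 6183 and 6278 CPM in talazoparib, 30.6% lower in the mean. The vehicle mean was 8980 ± 672 and the talazoparib mean 6230 ± 67 CPM (SD, n = 2), so the vehicle libraries differed from each other more than the talazoparib libraries did, and both lay above them. Because the copies are nearly identical, the share of each gene in this sum is uncertain.

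Every class of histone took part. Among the H1 linker histones 4 of 5 tested genes fell, among H2A 10 of 13, among H2B 16 of 16, among H3 7 of 11 and among H4 7 of 14, and the medians ran from -0.47 for H2A and H4 to -0.64 for H2B. The genes with the highest counts were H3C2 (606 and 540 CPM against 382 and 385 CPM, 1.49-fold lower), H1-2 (484 and 473 CPM against 345 and 373 CPM, 1.33-fold lower) and H1-5 (487 and 480 CPM against 325 and 326 CPM, 1.48-fold lower). H2BC14 showed the largest fall among the called histone genes, from 12.6 and 11.7 CPM to 5.73 and 5.26 CPM, 2.22-fold lower (adjusted p = 2.0e-04 from edgeR). These 4 genes were called in every alternative run. Only 3 members had fitted values above 0, among them H2AC7 (0.56, adjusted p = 0.508 from edgeR), and none of the 3 passed. Without single libraries of either arm, 32 to 44 histone genes were called and the list median lay between -0.64 and -0.47, the nearest to 0 without vehicle replicate 1, which had the highest sum. Leaving out combination replicate 2 gave 44 calls.

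The promoters of H3C2 and H2BC14 are shown as the gene with the most counts and the gene with the largest fall. They are again the 250 bases before the RefSeq start on GRCh38.p14, 5′ to 3′ on the gene strand, at chr6:26032100-26032349 (minus strand) and chr6:27814772-27815021 (plus strand). Capitals mark CCAAT, the motif bound by the factor NF-Y, TATAAA, the TATA box, and ATTTGCAT, the octamer bound by OCT1, on either strand. H3C2 holds 2 CCAAT matches, starting 96 and 54 bases before the start, and TATAAA 32 bases before it. H2BC14 holds 5 CCAAT matches, TATAAA on the opposite strand starting 219 bases before the start, and the octamer 48 bases before it.
H3C2: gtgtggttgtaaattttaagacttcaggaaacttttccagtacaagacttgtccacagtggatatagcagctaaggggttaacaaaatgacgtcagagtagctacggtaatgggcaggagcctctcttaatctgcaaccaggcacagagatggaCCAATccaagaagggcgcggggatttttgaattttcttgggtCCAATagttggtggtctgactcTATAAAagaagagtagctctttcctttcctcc
H2BC14: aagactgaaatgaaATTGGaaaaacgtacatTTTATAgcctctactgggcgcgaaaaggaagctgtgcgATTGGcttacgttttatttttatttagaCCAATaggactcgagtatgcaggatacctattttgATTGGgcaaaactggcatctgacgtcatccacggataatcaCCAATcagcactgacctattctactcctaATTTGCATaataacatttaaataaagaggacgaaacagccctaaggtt
Of the 54 tested histone genes with a promoter in the RefSeq table, 45 held CCAAT (83.3%, beside 33.0% of 27305 promoters), 36 held TATAAA (66.7% beside 11.1%) and 22 held the octamer (40.7% beside 1.66%). The octamer was found in 10 of 12 H2A and 12 of 16 H2B promoters and in 0 of 5 H1, 0 of 9 H3 and 0 of 12 H4 promoters. CCAAT was found in 3 of 12 H4 promoters and in each promoter of the other classes. The search covered these letters in this window only, at any place in it and on both strands, so a TATAAA match need not be a TATA box.

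Outside the clusters, 2 of 12 replacement and variant histone genes fell (16.7%, beside 1.29% of all genes called lower). Of these, H2AZ2, an H2A.Z gene, was at 172 and 178 CPM in vehicle and at 135 and 140 CPM in talazoparib, 1.27-fold lower. None of 13 genes of histone mRNA processing and histone supply passed in edgeR, DESeq2 or voom, with 2 higher and 1 lower at an unadjusted p under 0.05 (median -0.05).

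Of the genes of the senescence secretory programme that were called, more rose than fell. Of 67 tested members 23 rose and 5 fell (41.8% called, beside 4.12% of all genes), and the median log2 fold change was 0.25. By role, 7 of 11 cytokines rose and 0 fell, 1 of 7 chemokines rose, 5 of 16 growth factors rose and 3 fell, 4 of 18 proteases and inhibitors rose and 1 fell, and 2 of 5 matrix genes rose and 1 fell. THBS1, which encodes thrombospondin-1, was at 1276 and 1235 CPM in vehicle and at 3047 and 3035 CPM in talazoparib, a 2.42-fold rise (log2 fold change 1.28, standard error 0.08, adjusted p = 1.2e-06 from edgeR), and reads of THBS1-AS1 and FSIP1 on the opposite strand could have been counted with it. The THBS1 replicates of each arm were nearly equal, and the talazoparib replicates lay far above those of vehicle.

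Among the cytokines, IL11, a member of the IL6 family, rose most, from 6.96 and 7.24 CPM to 19 and 16 CPM (2.45-fold, adjusted p = 4.1e-06 from edgeR). The colony-stimulating factor CSF2 rose 1.53-fold, from 20.4 and 17.2 CPM to 29.4 and 28.2 CPM. Members of the interleukin-1 family rose together, IL18 by 0.51, IL1A by 0.47 and IL1B by 0.32 on the log2 scale. IL6 itself stood at 2.53 and 2.65 CPM in vehicle and at 3.36 and 3.02 CPM in talazoparib (log2 fold change 0.30, standard error 0.21, adjusted p = 0.542 from edgeR). IGFBP7, a secreted IGF-binding protein, rose by 0.91, PLAU, the urokinase protease, by 0.48, MMP14, a membrane-bound metalloprotease, by 0.47, HBEGF and AREG, ligands of the EGF receptor, by 0.48 and 0.39, and TGFB1 by 0.32. The chemokine CXCL1 rose by 0.43. The 5 members that fell were PDGFA, MMP7, a secreted metalloprotease (14.6 and 15.6 CPM against 8.83 and 8.23 CPM), NRG1, a ligand of ERBB receptors, TNC, the matrix protein tenascin-C, and VEGFA, the angiogenic factor. Without single libraries of either arm, 8 to 18 members were called higher and 2 to 5 lower, fewest higher without vehicle replicate 1 (8) and vehicle replicate 2 (9), and without combination replicate 2 the counts were 21 and 5.

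Of 13 genes of lamina, chromatin, lysosome and cell surface that mark senescence, 0 rose and 2 fell (15.4%, beside 1.29% of all genes called lower). LMNB1, which encodes lamin B1 and is known to fall in senescent cells, was at 274 and 274 CPM in vehicle and at 218 and 213 CPM in talazoparib, 1.27-fold lower (log2 fold change -0.34, standard error 0.05, adjusted p = 9.9e-04 from edgeR), and kept the call in every alternative run. LMNA, the A-type lamin gene, fell by 0.21 and was called in 8 of 15 alternatives.

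The transcription factors often tied to inflammatory genes showed mixed changes. Of 40 genes of NF-kB regulation and its targets 7 rose and 4 fell (27.5% called, beside 4.12% of all genes), with a median of 0.09. NFKB2, the p100 precursor subunit, rose by 0.43 and ICAM1, an adhesion molecule, by 0.44. TNFAIP2 was 1.51-fold lower (345 and 347 CPM against 234 and 224 CPM, adjusted p = 1.9e-05 from edgeR), TNFAIP8 fell by 0.51, and the inhibitors NFKBIA and BCL3 fell by 0.31 and 0.44. All but NFKB2 of the 7 genes that rose also stand in the senescence secretory or BCL2 family lists. Of 26 AP-1 and immediate early genes DUSP5, a phosphatase of ERK, rose by 0.67 (148 and 150 CPM against 251 and 221 CPM), MYC by 0.30 and FOSL1, a FOS family subunit of AP-1, by 0.30, and 0 fell. FOS itself did not pass, with a log2 fold change of -1.24 and a standard error of 0.38 (adjusted p = 0.239 from edgeR). In edgeR 11.5% of the AP-1 and immediate early list was called. DESeq2 called 2 members of this list lower, 1 of them a FOS family gene, and voom 0. The number of NF-kB genes called higher was 0 to 6 without single libraries of either arm, the 0 without vehicle replicate 2.

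YAP targets held a larger share of rises than any other of the 26 lists plotted, 8 of 20. YAP and TAZ are coactivators that act with TEAD factors and respond to cell shape and contact. Of 20 tested targets 8 rose and 1 fell (45.0% called, beside 4.12% of all genes), and 17 had values above 0, with a median of 0.18. Besides ANKRD1 and THBS1, NUAK2, a kinase related to AMPK, was at 26.5 and 24.7 CPM in vehicle and at 45.8 and 41.4 CPM in talazoparib, 1.70-fold higher, and CCN1, a secreted matricellular protein, at 377 and 367 CPM and at 562 and 537 CPM, 1.48-fold higher. AMOTL2 rose by 0.46, AREG by 0.39, LATS2, the kinase that inhibits YAP, by 0.36 and WWC1 by 0.26. CCN2, the close relative of CCN1 and among the most used YAP readouts, went the other way, from 30.1 and 26.9 CPM to 22.2 and 18.6 CPM, a fall by 0.49. THBS1 and AREG are shared with the senescence secretory list. Between 5 and 7 targets were called higher without single libraries of either arm.

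Of 53 interferon-stimulated genes 3 rose and 0 fell, beside 2.83% of all genes higher, with a median of 0.13. At an unadjusted p under 0.05, 17 were higher and 1 lower, beside 3572 of all 22406 genes in either direction, and 37 of the 53 had a positive log2 fold change. Besides IRF7, IFI6, an antiviral effector of mitochondria and ER, rose 1.95-fold at a low level (2.32 and 2.69 CPM against 5.30 and 4.54 CPM), and IFITM3, which blocks viral entry, 1.21-fold, a call kept in 7 of 15 alternatives. None of the 10 nucleic acid sensors was called in edgeR, DESeq2 or voom, with 4 higher and 0 lower at an unadjusted p under 0.05. CGAS, the DNA sensor that responds to damaged and cytosolic DNA, was at 99.1 and 108 CPM in vehicle and at 107 and 106 CPM in talazoparib (log2 fold change 0.04), and its adaptor STING1 at 27.7 and 28.9 CPM and at 32.9 and 33.2 CPM (log2 fold change 0.22, standard error 0.09, adjusted p = 0.237 from edgeR).

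Immune genes of the tumour cell surface were examined next. Of 21 tested genes of antigen presentation, checkpoint ligands and NKG2D ligands 5 rose and 0 fell (23.8% called, beside 4.12% of all genes), and none of the 9 class I presentation genes was called in edgeR, DESeq2 or voom, with 0 higher and 2 lower at an unadjusted p under 0.05. PDCD1LG2, which encodes PD-L2, rose 1.82-fold (2.91 and 2.58 CPM against 5.47 and 4.6 CPM), CD274, which encodes PD-L1, 1.33-fold (18.9 and 17.4 CPM against 22 and 26.1 CPM), and PVR by 0.23 on the log2 scale. ULBP2, a ligand of the NK cell receptor NKG2D, rose 1.56-fold (5.72 and 5.8 CPM against 8.61 and 9.32 CPM). MICB, another NKG2D ligand, had 2 and 2 counts in vehicle and 20 and 16 in talazoparib, a ratio of 8.79 with a 95% interval of 3.15 to 34.0 that covers counting error only (adjusted p = 0.049 from edgeR), and it was called in 5 of 13 alternatives, not in voom. MICA had 0 to 2 counts in each library. Without combination replicate 2, which ended the call of CD274, 3 genes of this list were called higher. Without single libraries of either arm 0 to 2 were, the 0 without either vehicle replicate.

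Metabolic and stress genes moved in both directions. Of 28 genes of cholesterol synthesis 8 rose and 1 fell (32.1% called, beside 4.12% of all genes), with a median of 0.25. Of the 20 pathway enzymes 19 had values above 0. HMGCS1, which makes HMG-CoA, was at 132 and 137 CPM in vehicle and at 180 and 185 CPM in talazoparib, 1.36-fold higher, and MSMO1, a sterol oxidase, at 28.7 and 30.1 CPM and at 40.5 and 44.2 CPM, 1.44-fold higher. SQLE, FDPS and ACAT2 rose by 0.31, 0.32 and 0.28. SREBF1, which encodes the SREBP1 factors of lipid synthesis, fell 1.44-fold, from 324 and 324 CPM to 240 and 212 CPM (adjusted p = 8.3e-04 from edgeR). When single libraries of either arm were left out, 1 to 5 of this list were called higher, 1 without vehicle replicate 1 and 2 without vehicle replicate 2.

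Some genes of amino acid stress and of xenobiotic and oxidative stress were called. Of 23 ATF4 targets and serine synthesis genes 5 fell and 1 rose (26.1% called, beside 4.12% of all genes). Without single libraries of either arm 0 to 4 were lower and 0 higher, with 0 lower without vehicle replicate 1. SLC7A11, the cystine importer, was 1.47-fold lower (57.1 and 53.3 CPM against 35.9 and 39.2 CPM), DDIT4, an inhibitor of mTORC1, 1.31-fold and PHGDH, the first enzyme of serine synthesis, 1.28-fold, while ATF5 rose by 0.35. Of 19 targets of AHR and NRF2 5 fell and 1 rose (31.6% called), and 3 or 4 were lower without single libraries of either arm. AKR1C2, an aldo-keto reductase with near-identical relatives, was 1.87-fold lower (7.03 and 8.71 CPM against 4.82 and 3.69 CPM), CYP1B1, an AHR target, 1.4-fold, and NQO1, a quinone reductase, fell by 0.43. HMOX1, the heme oxygenase, rose by 0.49 and kept the call in 7 of 15 alternatives. SLC7A11 is counted in both lists. Of 15 BCL2 family genes BAD, BAK1 and BCL2L1 rose by 0.38, 0.32 and 0.23, and BMF, a BH3-only gene, fell by 0.61 (26.7% called). Leaving out any 1 library of either arm left 0 of them higher and 0 or 1 lower, and the calls were kept in 10 of 15 alternatives for BAD, 11 for BAK1, 9 for BCL2L1 and 12 for BMF.

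Of 15 tested biliary and epithelial markers 2 rose and 1 fell (20% called, beside 4.12% of all genes), and 12 had a positive log2 fold change. SOX9, a biliary progenitor factor, rose 1.5-fold (140 and 149 CPM against 218 and 215 CPM, adjusted p = 1.6e-05 from edgeR), CLDN7, a claudin, rose by 0.25 and kept the call in 6 of 15 alternatives, and ONECUT2, a liver and biliary factor, fell by 0.37. The keratin KRT19 and the adhesion gene EPCAM had log2 fold changes of -0.01 and 0.01. Of 7 mesenchymal genes 1 was called (14.3%). It was SNAI1, a repressor of epithelial genes, which rose 1.83-fold at a low level (2.46 and 2.39 CPM against 4.86 and 4.08 CPM). Of the lists for other cell types, none of 4 fibroblast, 5 leukocyte and 3 hepatocyte genes tested passed in edgeR or voom, while DESeq2 called 1 fibroblast gene higher. At an unadjusted p under 0.05, 1 fibroblast gene was higher and 1 leukocyte gene lower. VWF, the von Willebrand factor gene of the endothelial list, rose by 0.78 and kept the call in 5 of 15 alternatives, not in DESeq2 or voom. The summed level of the biliary and epithelial markers was 9456 and 9549 CPM in vehicle and 10338 and 10092 CPM in talazoparib, that of the fibroblast markers 35.7 and 34.8 CPM and 45.9 and 41.7 CPM, and that of the endothelial markers 20.9 and 22.6 CPM and 26.9 and 25.8 CPM. These 3 sums were higher in both talazoparib libraries than in both vehicle libraries, and their part in the other results was not tested. The sums of the leukocyte markers (6.20 and 5.35 CPM against 5.92 and 5.82 CPM), the mesenchymal markers (1006 and 993 CPM against 1007 and 1043 CPM) and the hepatocyte markers (22.6 and 27.3 CPM against 23.6 and 28.9 CPM) are given for comparison. The leukocyte and hepatocyte sums overlapped between the arms, and the lower mesenchymal sum of talazoparib lay just above the higher one of vehicle.

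The same drug was also given on top of decitabine, in libraries of neither arm of the comparison with vehicle. These libraries entered the same fit, so that both comparisons share a filter and an estimate of spread per gene. Their calls are therefore not fully independent. The question was whether the genes that talazoparib changed alone also changed when decitabine was present. The combination differed from decitabine in 1720 genes (7.68% of those tested), 990 higher (4.42%) and 730 lower (3.26%). Of the 635 genes that talazoparib raised alone, 630 had the same sign on top of decitabine and 470 (74.0%) were also called higher, beside 4.42% of all genes. Of the 288 genes that it lowered alone, 284 had the same sign and 219 (76.0%) were also called lower, beside 3.26%. The median of the higher genes was 0.47 without and 0.42 with decitabine, and that of the lower genes -0.44 and -0.47. ANKRD1 stood at 79.5 and 69.5 CPM in decitabine and at 181 and 195 CPM in the combination, and THBS1 at 1570 and 1275 CPM and at 3404 and 3613 CPM. CDKN1A stood at 103 and 85.8 CPM and at 149 and 147 CPM. Without combination replicate 2, the combination differed from decitabine in 853 genes, without combination replicate 1 in 1105, and without decitabine replicate 2 in 2544.

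**Figure D4:**
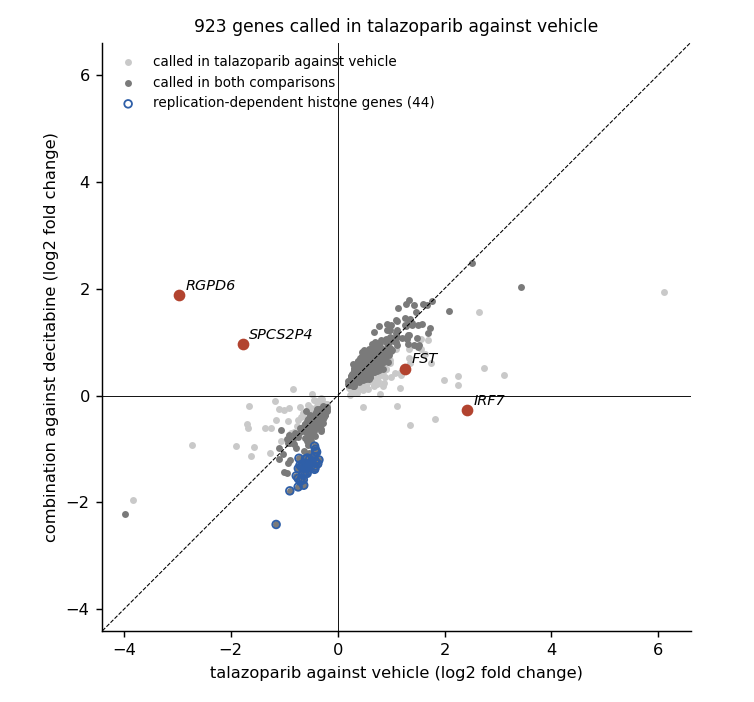
Log2 fold change of the 923 genes called in talazoparib against vehicle (x axis) and of the same genes in the combination against decitabine (y axis), with the line of equality dashed. The 44 called histone genes lie below the line, and RGPD6, SPCS2P4, FST and IRF7, in red, are the named genes outside the histone list whose effects differed between the 2 comparisons.

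A test of the difference between these effects, the interaction of both drugs on the log2 scale, passed in 36 genes (0.161% of those tested), and 757 had an unadjusted p under 0.05. The 36 became 27 without vehicle replicate 2 and 85 without decitabine replicate 1, and 32 without combination replicate 2. Of the 36 genes 32 were replication-dependent histones, all with a lower value on top of decitabine. The median histone change was -0.56 without and -1.28 with decitabine, all 59 interaction values lay below 0, and their median was -0.76. Summed histone levels were 8732 and 8874 CPM in decitabine, close to vehicle, and 3471 and 3764 CPM in the combination, 58.9% below decitabine in the mean. Of the other 4 genes, FST rose 2.40-fold without decitabine and by 0.50 on the log2 scale with it (46.2 and 48.0 CPM against 65.3 and 67.8 CPM), an interaction of -0.76 (standard error 0.10, adjusted p = 6.4e-04 from edgeR). IRF7 did not keep its rise, with 1.52 and 1.55 CPM in decitabine and 0.815 and 1.66 CPM in the combination (interaction -2.70, adjusted p = 0.00755 from edgeR). RGPD6 and SPCS2P4 were lower in decitabine than in the combination and turned sign, with interactions of 4.85 and 2.74.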

How the data were processed

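RNA was sequenced from EGI-1 cells in 4 arms of 2 libraries, with TruSeq stranded total RNA libraries after ribosomal RNA removal per the methods. The labels name Trizol and the methods an RNAeasy kit for extraction. The deposited values were raw read counts per gene, which the authors made. Their methods name fastp, STAR and RSEM, whereas the submitters' processing notes name fastp, Trim Galore, HISAT2 and featureCounts with GRCh38, and all values were whole numbers. The strand setting, the treatment of reads that match several places and the annotation are not given in the sources used here. Symbols came from GENCODE 44, which matched 60437 of 60651 genes. No column belonged to another series (0 columns).

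Counts were filtered by filterByExpr, scaled by TMM and fitted with the robust quasi-likelihood test of edgeR 4.0.16 in R 4.3.3, with 1 mean per arm over the 8 EGI-1 libraries and 4 residual degrees of freedom before moderation. Standard errors are the log2 fold change divided by the square root of F. CPM are counts per 1000000 with TMM factors, except in the sums of marker genes, which were scaled by library totals alone. p-values were adjusted after Benjamini and Hochberg over 22406 genes with a threshold of 0.05. The fit was tested on simulated data. Intervals and floors (3 counts) cover counting error only. Named were the 12 largest called rises and falls among genes averaging 1 log2 CPM or more whose arms did not overlap (histones left out), the 3 histones with the most counts and the 1 with the largest fall, up to 4 called genes of each other list by size of change, 15 genes chosen for their role (PARP1, PARP2, PARG, SLFN11, ABCB1, BRCA1, BRCA2, CDKN1A, MDM2, IL6, LMNB1, MICA, MICB, CGAS and STING1), up to 4 genes with an interaction, and the 3 lowest p-values. Other list members and GGAATG were chosen after their values were seen, and some genes of the rule are not reported here. The members and the lists were chosen with earlier results of these data known. Promoters came from RefSeq on GRCh38.p14. The listed symbols that matched no gene were H2AC18, H2AC19, H2BU1 and SOD2. Alternatives were DESeq2 1.42.0, limma voom 3.58.1, RLE and upper-quartile factors, other filters, no robust moderation, only 4 libraries, a replicate block, and single libraries left out. Against vehicle, the libraries left out were those of its own arms and combination replicate 2. An adjusted p that DESeq2 gave as NA was not counted as a lost call. Leaving combination replicate 2 out of the comparison with vehicle and the crossed block were added after seeing the data.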

Additional observations from a re-analysis of the deposited data

Results flagged for a closer look

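The effect of talazoparib differed with and without decitabine, by the interaction test of edgeR, in 36 genes, 2 with a higher and 34 with a lower value on top of decitabine. Of these, 32 were replication-dependent histones. The remaining 4 were RGPD6, with a difference of 4.85 on the log2 scale (adjusted p = 3.1e-04), SPCS2P4 with 2.74 (adjusted p = 0.00862), FST with -0.76 (adjusted p = 6.4e-04) and IRF7 with -2.70 (adjusted p = 0.00755). IRF7 was at or below 1.66 CPM in the 6 libraries without talazoparib alone and at 6.67 and 5.41 CPM with it. FST was higher in decitabine (46.2 and 48.0 CPM) than in vehicle (31.6 and 32.2 CPM), and highest in talazoparib (76.8 and 76.3 CPM).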

How the results depend on the processing

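The 923 calls of talazoparib against vehicle became 1851 (1133 higher, 718 lower) with the 4 libraries alone, and 247 to 818 when 1 library was left out. Fitted with its own 4 libraries, the combination against decitabine gave 963 calls, the replicate block crossed after a negative correlation gave 2779, and leaving out 1 library gave 853 to 2544. The interaction gave 71 calls without a filter, 504 at an unadjusted p under 0.05 with a log2 fold change over 0.5 in size, and 27 to 85 without 1 library. The cause was not tested. DESeq2 gave 948, RLE factors 924 and voom 905 calls against vehicle, upper-quartile factors 874 (546 higher, 328 lower), and the unadjusted rule 1202 (691 higher, 57.5%, against 68.8%).

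The labels share replicate numbers but say nothing of pairing, and deviations of vehicle and talazoparib libraries of the same number had a correlation of -0.0156. For other pairs of arms it ran from -0.266 (decitabine and talazoparib) to 0.195 (talazoparib and combination). The library names form a lettered and a numbered series, each with a library of every arm. Vehicle replicate 1 is lettered, whereas replicate 1 of every other arm is numbered. What these series stand for is not stated. With the replicate block by title number 656 genes were called, and 714 with that by library name. The 87 called named genes gave 1296 values under the alternatives, of which 1111 kept the call, 185 lost it and 0 reversed. Since the arms did not overlap in these genes, a reversal was hardly possible.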
